A study of Mus musculus with 22 samples.

Results

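The proteasome is the protease complex that degrades ubiquitin-tagged proteins, and its subunits are encoded by the Psm genes. Array probes were taken as proteasome probes when the platform annotation gave them 1 gene symbol that begins with Psma, Psmb, Psmc, Psmd, Psme, Psmf or Psmg followed by a digit. This found 86 probes for 49 symbols, of which 75 probes for 44 genes were detected (detection p under 0.05) on at least 3 of 22 arrays. These 44 genes stand among 11975 genes with a kept probe. Psma1, Psma3, Psmb11, Psmd3 and Psmg4 had no kept probe, and Psmf1 was not analysed here. Each gene is represented by its brightest kept probe, and 23 of the 44 genes had several kept probes.

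The proteasome core particle is a barrel of alpha (Psma) and beta (Psmb) subunits, with the cutting sites on Psmb5, Psmb6 and Psmb7. The regulatory cap recognises ubiquitin chains, unfolds the substrate with a ring of ATPases (Psmc) and holds further lid and base subunits (Psmd). Immune cells, and other cells under interferon, build immunoproteasomes in which Psmb8 replaces Psmb5, Psmb9 replaces Psmb6 and Psmb10 replaces Psmb7, and the resulting peptides are loaded on MHC class I. The alternative activators Psme1 to Psme4 open the core without the ATPase ring, and dedicated chaperones assemble the core and the cap base. The 44 genes comprised 12 of the constitutive core, 3 of the immunoproteasome, 16 of the cap, 4 activators, 6 assembly chaperones and the testis core subunit Psma8. Psmc3ip and Psme3ip1 also met the symbol pattern but encode interacting proteins, not subunits.

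Liver RNA of female C3H mice was hybridised to Illumina bead arrays in 4 groups. Mice given TCPOBOP, an agonist of the mouse constitutive androstane receptor that makes hepatocytes divide, received 3 mg/kg by stomach tube every week, and 3 arrays came from 28 weeks and 7 from 42 weeks of dosing. On 9 arrays the mice had received a single intraperitoneal injection of 90 mg/kg of the liver carcinogen diethylnitrosamine (DENA) a week before 28 weeks of the same TCPOBOP dosing. The 3 control arrays were titled "co ass" and were read as the controls that the series design lists, which received DMSO in corn oil and were age-matched. The protocols describe liver tumours at 28 and 42 weeks and microdissected tissue, but the labels do not say which samples were tumour or how old the control mice were when sampled. The labels call the samples biological replicates. Should some arrays come from 1 mouse, the p-values given here would cover the spread between arrays and not between mice. In bulk liver, fewer cells of a type and less RNA per cell cannot be told apart.

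The share of probes detected on an array ranged over 34.8% to 42.6%. All values below are log2 of the authors' normalised intensity, from which no background had been subtracted, so differences of dim probes are understated. A gene was called higher or lower when its adjusted p in limma, with Benjamini-Hochberg adjustment over all 11975 genes, was under 0.05. The 3 comparisons with controls share the same 3 control arrays. Markers of other cells moved with treatment too: the summed intensity of 13 macrophage and dendritic cell markers ranged over 12533.7 to 15678.9 at TCPOBOP 28 weeks, 6752.63 to 19342.3 at TCPOBOP 42 weeks and 6572.16 to 13995.5 after DENA plus TCPOBOP, against 5330.19 to 6492.77 in controls. The summed intensity of 8 hepatocyte markers ranged over 142188 to 161002, 133880 to 163789 and 117196 to 161915 in those groups, against 166151 to 185291 in controls. The summed intensity of 5 stellate cell markers ranged over 12241.7 to 14020.4, 1596.06 to 6853.75 and 1421.64 to 7850.81, against 13906.7 to 16838.4 in controls. That of 6 endothelial markers ranged over 2129.32 to 2546.07, 994.691 to 1656.12 and 903.029 to 1880.95, against 2515.9 to 3132.6 in controls. Both sums lay below all controls at TCPOBOP 42 weeks and after DENA plus TCPOBOP, and overlapped them at TCPOBOP 28 weeks. Bright genes weigh most in a sum, and not every marker was lower. Of the 5 stellate markers, 1 differed by 2.45 at 42 weeks and 1 by 1.63 after DENA plus TCPOBOP. The other 4 had negative differences in each of these groups. The highest differences among the 6 endothelial markers were 0.39 and 0.35. The part of these shifts in the results below was not tested.

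Psmd8, a lid subunit of the cap, showed the largest difference from controls of the 44 genes in each of the 3 comparisons. It read 12.48, 12.44 and 12.28 on the log2 scale at TCPOBOP 28 weeks, against 11.75, 11.51 and 11.38 in controls. At TCPOBOP 42 weeks its lowest, median and highest levels were 12.72, 13.05 and 13.12, and after DENA plus TCPOBOP they were 12.65, 12.91 and 13.37. All 19 treated arrays lay above all 3 control arrays, and the 42-week and DENA arrays lay above the 28-week ones. The difference from controls was 0.85 (SE 0.17, adjusted p = 0.00277) at 28 weeks, 1.44 (SE 0.14, adjusted p = 1.41e-07) at 42 weeks and 1.41 (SE 0.14, adjusted p = 1.23e-07) after DENA plus TCPOBOP. In linear terms these were 1.81-fold, 2.72-fold and 2.66-fold. On the slides that held both groups the difference was 0.69 to 0.91 at 28 weeks, 1.29 at 42 weeks and 1.21 to 1.67 after DENA plus TCPOBOP.

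Psmc4, an ATPase of the cap, was the other gene called higher in all 3 comparisons. Its levels were 12.28, 12.35 and 12.10 at TCPOBOP 28 weeks, against 11.97, 11.67 and 11.62 in controls. At TCPOBOP 42 weeks Psmc4 lay between 12.34 and 12.74 with a median of 12.71, and after DENA plus TCPOBOP between 12.12 and 12.68 with a median of 12.56. No treated array fell into the control range. The differences were 0.49 (SE 0.15, adjusted p = 0.0477), 0.85 (SE 0.12, adjusted p = 2.05e-05) and 0.75 (SE 0.12, adjusted p = 6.01e-05). The 28-week call was lost on leaving out any of 5 of the 6 arrays, all but control replicate 1, with adjusted p of up to 0.179. It was kept in only 6 of 12 other processing settings, with adjusted p of up to 0.35. The 300-base promoter windows of these 2 genes, which run past the annotated start and lie mostly before it, are printed 5′ to 3′ because these genes moved in every comparison with controls. They come from RefSeq on build GRCm38.p6, at chr7:29180624-29180923 on the minus strand for Psmd8 and at chr7:28050043-28050342 on the minus strand for Psmc4. Capitals mark none of their bases, since neither window holds a match to any motif searched.
Psmd8: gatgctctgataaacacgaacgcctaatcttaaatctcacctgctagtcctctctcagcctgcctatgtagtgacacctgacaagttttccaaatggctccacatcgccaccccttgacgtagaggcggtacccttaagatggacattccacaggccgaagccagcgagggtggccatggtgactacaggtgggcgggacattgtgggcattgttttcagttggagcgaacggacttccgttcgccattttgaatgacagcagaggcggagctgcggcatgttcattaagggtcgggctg
Psmc4: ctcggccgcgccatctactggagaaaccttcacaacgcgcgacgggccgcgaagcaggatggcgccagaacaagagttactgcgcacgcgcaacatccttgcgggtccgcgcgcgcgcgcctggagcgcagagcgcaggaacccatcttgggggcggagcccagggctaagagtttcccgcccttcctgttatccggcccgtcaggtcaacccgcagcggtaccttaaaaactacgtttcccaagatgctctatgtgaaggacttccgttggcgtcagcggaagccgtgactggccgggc

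**Figure D1:**
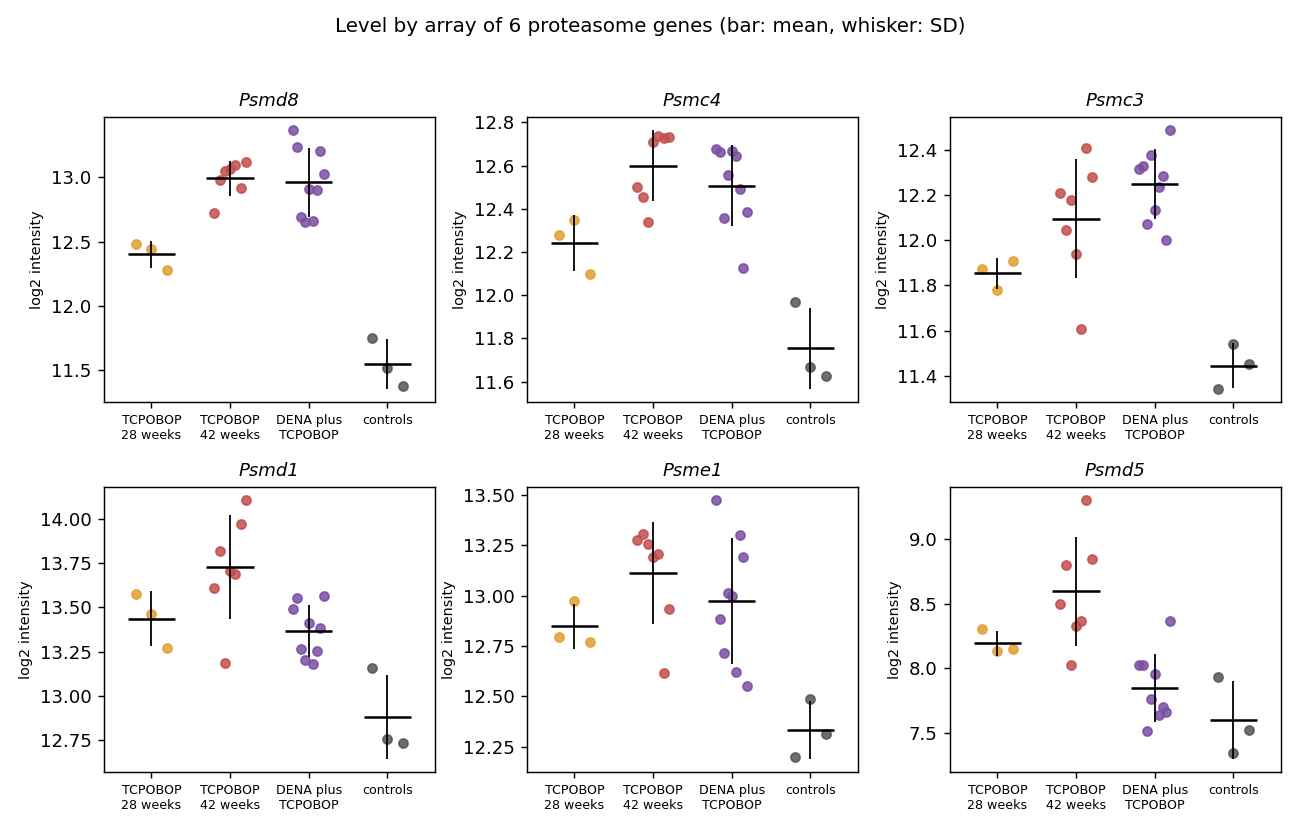
Log2 normalised intensity of Psmd8, Psmc4, Psmc3, Psmd1, Psme1 and Psmd5 on each array (points) by group, with the group mean (bar) and SD (whisker); the y axes do not start at 0 and differ between genes. All treated arrays of Psmd8, Psmc4, Psmc3, Psmd1 and Psme1 lie above the 3 controls, while Psmd5 is highest at TCPOBOP 42 weeks, with a mean of 8.59 against 7.60 in controls.

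After 42 weeks of TCPOBOP, 14 of the 44 proteasome genes were called higher than in controls, or 31.8% of them, against 14.8% of all genes. Another 2 were called lower, against 17.5% of all genes. The median difference over the 44 genes was 0.28, and over all genes it was -0.01; 33 of the 44 genes had a positive difference, against 5853 of 11975. The called genes were 8 of 16 in the cap, 3 of 12 in the constitutive core, 2 of 4 activators, 1 of 6 chaperones and none of 3 in the immunoproteasome.

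In the cap at 42 weeks, the genes called higher besides Psmd8 and Psmc4 were the ATPases Psmc2, Psmc3 and Psmc5, the scaffold subunit Psmd1 and the lid subunits Psmd12 and Psmd13. Psmd1, which holds the cap together and docks ubiquitin factors, had a lowest, median and highest level of 13.19, 13.70 and 14.11 at 42 weeks, against 13.16, 12.75 and 12.74 in controls. All 7 arrays were above the 3 controls, the lowest by little. Its difference was 0.84 (SE 0.15, adjusted p = 0.000161), and another probe for Psmd1 gave 0.14. Psmc3 had levels of 11.61, 12.18 and 12.41 (lowest, median and highest) against 11.34, 11.54 and 11.45 in controls. Again the ranges did not overlap, and the difference was 0.65 (SE 0.13, adjusted p = 0.000591). Psmd12, whose product belongs to the lid, had levels of 11.28, 11.78 and 12.42 against 11.08, 10.73 and 11.32 in controls, and 1 of the 7 arrays fell within the control range. Its difference was 0.79 (SE 0.20, adjusted p = 0.0037), with 0.18 from a second probe. Psmc2, another ATPase of the ring, lay between 13.25 and 14.09 with a median of 13.42, against 13.09, 12.88 and 12.77 in controls. The ranges did not overlap, and the difference was 0.64 (SE 0.16, adjusted p = 0.00405). Psmc5 lay between 11.59 and 11.95 with a median of 11.88, against 11.38, 11.53 and 11.30 in controls, a difference of 0.39 (adjusted p = 0.0378). Psmd13 lay between 11.93 and 12.51, against 11.71, 12.08 and 11.66 in controls, and its ranges overlapped. Its difference was 0.37 (adjusted p = 0.0314).

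The other 8 cap genes were not called at 42 weeks. Psmd4, a ubiquitin receptor, differed by 0.46 (adjusted p = 0.0603), and Psmd14, which cuts the ubiquitin chain off the substrate, differed by 0.29 (adjusted p = 0.192). Psmd2, the partner scaffold of Psmd1, lay near the detection limit, with detection on 6 of 7 arrays at 42 weeks and 2 of 3 control arrays. The ATPase Psmc6 had a difference of -0.04 (95% confidence interval -0.29 to 0.21, adjusted p = 0.83), and the ATPase Psmc1 one of 0.17 (adjusted p = 0.439). The probe of Psmc6 was dim, with a mean of 7.49, though detected on all 22 arrays, so its difference may be understated. The lid subunit Psmd7 differed by 0.40 (adjusted p = 0.116), the lid subunit Psmd11 by 0.15 (adjusted p = 0.588) and Psmd6, also of the lid, by -0.05 (adjusted p = 0.836). Other kept probes of Psmd7 gave 0.69 and -0.27, and another of Psmd11 gave -0.08. The median difference over the 16 cap genes was 0.40 at 42 weeks.

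In the constitutive core at 42 weeks, the alpha subunit Psma7 (0.54, adjusted p = 0.0106), the catalytic subunit Psmb7 (0.48, adjusted p = 0.018) and the beta subunit Psmb4 (0.38, adjusted p = 0.0342) were called higher. Psmb7, which cuts after basic residues, lay between 12.74 and 13.59 with a mean of 13.03, against 12.60, 12.47 and 12.58 in controls. Every 42-week array was above the controls. Psma7 lay between 12.34 and 13.10 with a median of 12.55, and Psmb4 between 13.79 and 14.58 with a median of 13.89. Their controls read 12.13, 12.01 and 12.09 for Psma7 and 13.78, 13.57 and 13.50 for Psmb4, below every 42-week array. The other catalytic subunits were not called: Psmb5 differed by 0.26 (adjusted p = 0.333) and Psmb6 by -0.05 (adjusted p = 0.836). Among the remaining alpha subunits, Psma5 differed by 0.36 (adjusted p = 0.0853), Psma4 by 0.10 (adjusted p = 0.57), Psma2 by -0.15 (adjusted p = 0.552) and Psma6, near the detection limit, by -0.14 (adjusted p = 0.442). Among the structural beta subunits, Psmb1 differed by 0.28 (adjusted p = 0.119), Psmb2 by -0.11 (adjusted p = 0.688) and Psmb3 by 0.02 (adjusted p = 0.945). The median over the 12 core genes was 0.18. None of the 3 core calls was kept without control replicate 2, where 0 core genes and 10 proteasome genes in all were called. Over all genes, 1229 were then called higher and 1473 lower, in place of 1773 and 2097.

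Among the activators at 42 weeks, Psme1 and Psme3 were called higher. Psme1, which with Psme2 forms an interferon-inducible ring linked to antigen processing, lay between 12.62 and 13.31 with a median of 13.21, against 12.20, 12.49 and 12.31 in controls. All 7 arrays were above the controls, and the difference was 0.78 (SE 0.17, adjusted p = 0.0016). Its partner Psme2 differed by 0.27 (adjusted p = 0.386). Psme2 read 9.34, 8.94 and 9.63 in controls, within the 8.70 to 10.06 of the 42-week arrays. Psme3, whose product forms a nuclear ring, differed by 0.52 (adjusted p = 0.0148), and the nuclear activator Psme4 by 0.22 (adjusted p = 0.302).

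Psmd5, a chaperone of cap base assembly, had levels at 42 weeks of 8.03, 8.49 and 9.30 (lowest, median and highest), against 7.93, 7.34 and 7.52 in controls. All 7 arrays were above the controls, and the difference was 1.00 (SE 0.21, adjusted p = 0.000906). Psmd10, another base chaperone, known as gankyrin and described as raised in human liver cancer, differed by 0.08 (adjusted p = 0.779). Its levels at 42 weeks spanned 9.57 to 10.70 and enclosed the control levels of 10.07 to 10.30. The other chaperones were not called: Psmg1 differed by 0.41 (adjusted p = 0.0744), Psmg2 by 0.29 (adjusted p = 0.283), Psmg3 by -0.25 (adjusted p = 0.257) and Psmd9 by -0.25 (adjusted p = 0.253). A second probe of Psmd9 gave 0.27, and other probes of Psmg2 gave 0.08 and -0.12. Psmc3ip, an interacting protein, differed by 0.36 (adjusted p = 0.0554). Lower calls were the testis subunit Psma8 (-0.38, adjusted p = 0.0319), detected on 1 of 7 arrays at 42 weeks and 3 of 3 control arrays, and Psme3ip1 (-0.35, adjusted p = 0.0348), which is not a subunit.

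Psme1, Psmc2, Psmc3, Psmc4, Psmd1, Psmd12, Psmd5 and Psmd8 kept their 42-week call in all 12 other settings and with each array left out. The other 8 calls, those of Psma7, Psmb4, Psmb7, Psmc5, Psmd13, Psme3, Psma8 and Psme3ip1, were lost in at least 1 of these. Among genes with several kept probes, all probes had 1 direction at 42 weeks in 9 of 9 called and 6 of 14 uncalled genes. After DENA plus TCPOBOP these counts were 5 of 6 and 13 of 17, and at TCPOBOP 28 weeks 17 of 23 uncalled genes. Probes of a gene with a small difference can differ in sign through noise alone. The counts therefore do not test the calls, and no share over all genes with several probes was compared.

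**Figure D2:**
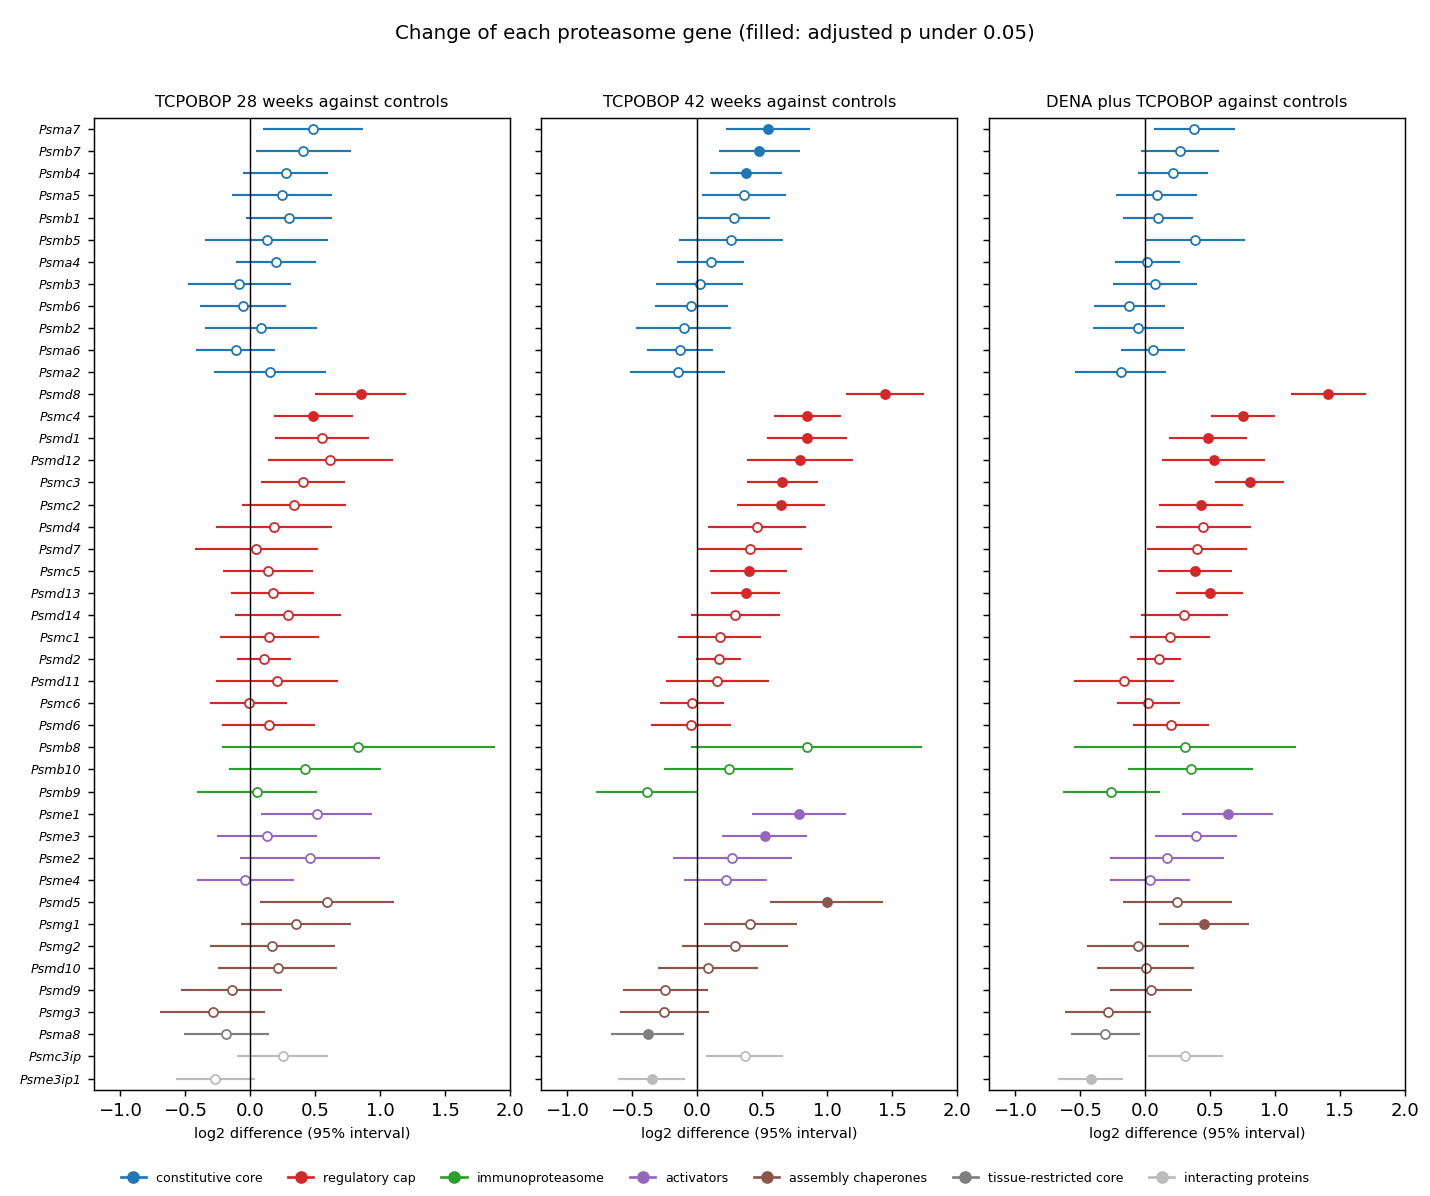
Log2 difference from controls of each of the 44 proteasome genes, by class, at TCPOBOP 28 weeks, TCPOBOP 42 weeks and after DENA plus TCPOBOP; points are limma estimates, bars are 95% confidence intervals and filled points are calls. Filled points number 2, 16 and 11 in the 3 panels, and the cap holds 2, 8 and 8 of them.

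After DENA plus TCPOBOP, 10 of the 44 genes were called higher than in controls, or 22.7%, against 11.9% of all genes. A single gene was called lower, against 15% of all genes. The median difference was 0.21 over the 44 genes and -0.01 over all genes, with 35 of 44 positive against 5868 of 11975. By class the higher calls were 8 of 16 in the cap, 0 of 12 in the constitutive core, 1 of 4 activators, 1 of 6 chaperones and 0 of 3 in the immunoproteasome. The median was 0.42 in the cap and 0.08 in the core.

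The ATPase Psmc3 lay between 12.00 and 12.49 after DENA plus TCPOBOP, with a median of 12.29, against 11.34, 11.54 and 11.45 in controls. All 9 arrays were above the controls, and the difference was 0.81 (SE 0.13, adjusted p = 5.89e-05). Psmd13 lay between 12.13 and 12.46 with a median of 12.33, against 11.66, 11.71 and 12.08 in controls. The ranges did not overlap, and its difference was 0.50 (adjusted p = 0.00471). The scaffold subunit Psmd1 lay between 13.18 and 13.56 with a median of 13.38, above every control array. Psmd1 differed by 0.49 (adjusted p = 0.0149), Psmd12 by 0.53 (adjusted p = 0.0424), Psmc2 by 0.43 (adjusted p = 0.0434) and Psmc5 by 0.38 (adjusted p = 0.0418). The ranges of Psmd12, Psmc2 and Psmc5 overlapped those of controls. Outside the cap, the activator Psme1 differed by 0.64 (SE 0.17, adjusted p = 0.00702) and the core assembly chaperone Psmg1 by 0.46 (adjusted p = 0.0447). Psme1 lay between 12.55 and 13.47 on the 9 arrays, above the 12.20, 12.49 and 12.31 of controls. Psmg1 lay between 9.59 and 10.60 with a median of 10.02, against 9.51, 9.54 and 9.82 in controls, and its ranges overlapped. Psme3 (0.39, adjusted p = 0.0597), Psmd4 (0.45, adjusted p = 0.0627) and Psmd5 (0.25, adjusted p = 0.41) were not called. In the core, the catalytic subunit Psmb5 lay between 8.42 and 9.22 with a median of 8.92, against 8.21, 8.60 and 8.55 in controls, and differed by 0.39 (adjusted p = 0.133). Psmb6 differed by -0.12 (95% confidence interval -0.39 to 0.15, adjusted p = 0.563), Psmb7 by 0.27 (adjusted p = 0.181) and the alpha subunit Psma7 by 0.38 (adjusted p = 0.0676). The other core genes had differences of -0.19 in Psma2 to 0.22 in Psmb4. Psmd10 differed by 0.01 (95% confidence interval -0.37 to 0.38, adjusted p = 0.986), Psmd14 by 0.30 (adjusted p = 0.177) and Psme2 by 0.17 (adjusted p = 0.618). Psme3ip1 was called lower (-0.42, adjusted p = 0.0129), although another of its probes gave 0.00.

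Psmc3, Psmc4 and Psmd8 kept their call in this comparison in all 12 other settings and with each array left out. Every other call was lost in at least 1 of these. Psmc5 kept its call with 2 of 12 arrays left out in turn and in 5 of 12 settings. For Psmd12 these counts were 4 and 6, for Psmc2 5 and 6, and for Psmg1 4 and 6. Without control replicate 2, 5 proteasome genes were called in place of 11, 4 of them in the cap, and 7 were called without DENA replicate 2 or without control replicate 3. Over all genes, 968 were called higher and 1254 lower without control replicate 2, in place of 1426 and 1796. These all-gene calls were 949 and 1283 without control replicate 3, and 1397 and 1708 without DENA replicate 2.

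At TCPOBOP 28 weeks, with 3 arrays against 3, Psmd8 and Psmc4 were the 2 genes called higher, or 4.55% of the 44, against 3.6% of all genes, so this count is near the background. No gene was called lower, against 2.76% of all genes. The differences were still mostly positive, in 35 of 44 genes against 5566 of 11975, with a median of 0.19 against -0.02. Psmd1 read 13.57, 13.46 and 13.27, against 13.16, 12.75 and 12.74 in controls. These did not overlap, and the difference of 0.55 had an adjusted p of 0.0662. Psmd12 differed by 0.62 (adjusted p = 0.134), Psma7 by 0.49 (adjusted p = 0.142) and Psmc3 by 0.41 (adjusted p = 0.138). Not called either were Psmb5 (0.13), Psmb6 (-0.05), Psmb7 (0.41), Psme1 (0.51), Psme2 (0.46), Psme3 (0.13) and Psme4 (-0.03). The same held for Psmd4 (0.19), Psmd10 (0.21), Psmd14 (0.30) and Psmg1 (0.36). Class medians were 0.18 in the constitutive core, 0.20 in the cap and 0.42 in the immunoproteasome, which has 3 genes, none of them called. When only the 28-week and control arrays were fitted, 10 of the 44 genes were called higher, and the higher calls over all 11975 genes also increased, to 1058 in place of 431.

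The cap can be set beside the core on each array, as the median over each class of the differences from the control mean. The cap median was 0.30, 0.32 and 0.16 on the 28-week arrays, while control arrays lay between -0.05 and 0.03. Its lowest, median and highest were 0.23, 0.49 and 0.63 at 42 weeks and 0.17, 0.45 and 0.61 after DENA plus TCPOBOP. All treated arrays were above the controls, which are centred on their own mean and so lie near 0 by construction. The core median was 0.05, 0.24 and 0.18 at 28 weeks, -0.18 to 0.46 at 42 weeks and -0.14 to 0.33 after DENA plus TCPOBOP, so it spanned 0 in both larger groups. The cap median exceeded the core median on 2 of 3 arrays at 28 weeks, on 7 of 7 at 42 weeks (by 0.06 to 0.76) and on 9 of 9 after DENA plus TCPOBOP (by 0.01 to 0.65).

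**Figure D3:**
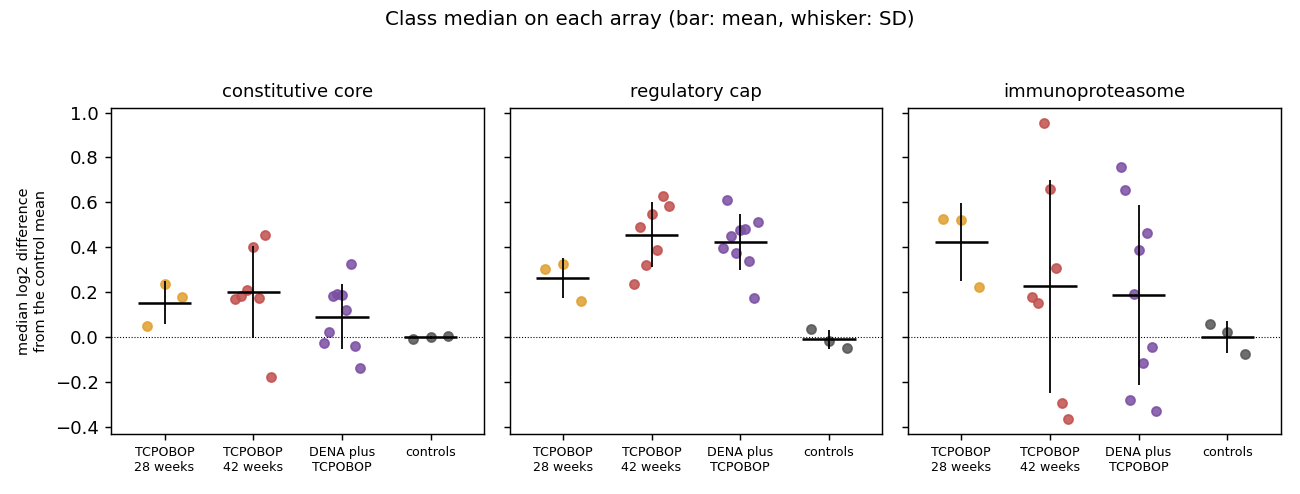
Median over the genes of each class of the log2 difference from the control mean, for the constitutive core (12 genes), the cap (16 genes) and the immunoproteasome (3 genes), 1 point per array, with the group mean (bar) and SD (whisker). Cap points of treated arrays lie between 0.16 and 0.63, above the controls, while immunoproteasome points spread over -0.37 to 0.95 at 42 weeks.

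None of the 3 immunoproteasome genes was called in any comparison with controls. Their median difference was 0.42 at TCPOBOP 28 weeks, 0.24 at 42 weeks and 0.31 after DENA plus TCPOBOP. The cap medians were 0.20, 0.40 and 0.42. Psmb8 read 11.29, 10.94 and 11.01 at TCPOBOP 28 weeks, against 10.84, 9.50 and 10.41 in controls. At 42 weeks it ranged over 9.88 to 12.15 with a median of 11.34, and after DENA plus TCPOBOP over 9.62 to 11.19 with a median of 10.64. The 28-week arrays lay above the controls, and both larger groups overlapped them. The differences were 0.83 (95% confidence interval -0.22 to 1.88, adjusted p = 0.417), 0.84 (-0.05 to 1.73, adjusted p = 0.143) and 0.31 (-0.55 to 1.17, adjusted p = 0.645). The other kept probe of Psmb8 gave smaller differences of 0.32, 0.26 and 0.24. All 3 intervals include 0, so neither a rise nor its absence was shown at this spread.

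Psmb10 read 11.69, 11.69 and 11.39 at 28 weeks, against 11.23, 11.19 and 11.09 in controls. It ranged over 10.87 to 12.12 at 42 weeks and over 10.93 to 12.00 after DENA plus TCPOBOP, both enclosing the controls. Its differences were 0.42 (adjusted p = 0.476), 0.24 (adjusted p = 0.482) and 0.35 (adjusted p = 0.291). Psmb9 lay near the detection limit, with detection on 4 of 7 arrays at 42 weeks, and differed by 0.05 (adjusted p = 0.942), -0.39 (adjusted p = 0.12) and -0.26 (adjusted p = 0.332). At 42 weeks the SD was 0.86 for Psmb8, 0.38 for Psmb9 and 0.45 for Psmb10. For their constitutive counterparts it was 0.33 for Psmb5, 0.23 for Psmb6 and 0.29 for Psmb7.

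The spread of the immunoproteasome genes within a group ran over the same arrays for more than 1 gene. At 42 weeks, replicates 6 and 7 read 10.01 and 9.88 for Psmb8, 10.87 and 10.91 for Psmb10 and 6.81 and 6.73 for Psmb9, each time the 2 lowest of the 7 arrays. The same 2 arrays read 12.62 and 12.93 for the activator Psme1, also the 2 lowest, and 13.97 and 14.11 for the cap subunit Psmd1, the 2 highest. These 2 arrays did not move together in every class. Their median differences from the control mean were 0.46 and -0.18 in the core and 0.24 and 0.61 in the activators. After DENA plus TCPOBOP, replicate 9 was the lowest for Psmb9, Psmb10 and Psme1, at 7.08, 10.93 and 12.55, and replicate 3 was the lowest for Psmb8 at 9.62.

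**Figure D4:**
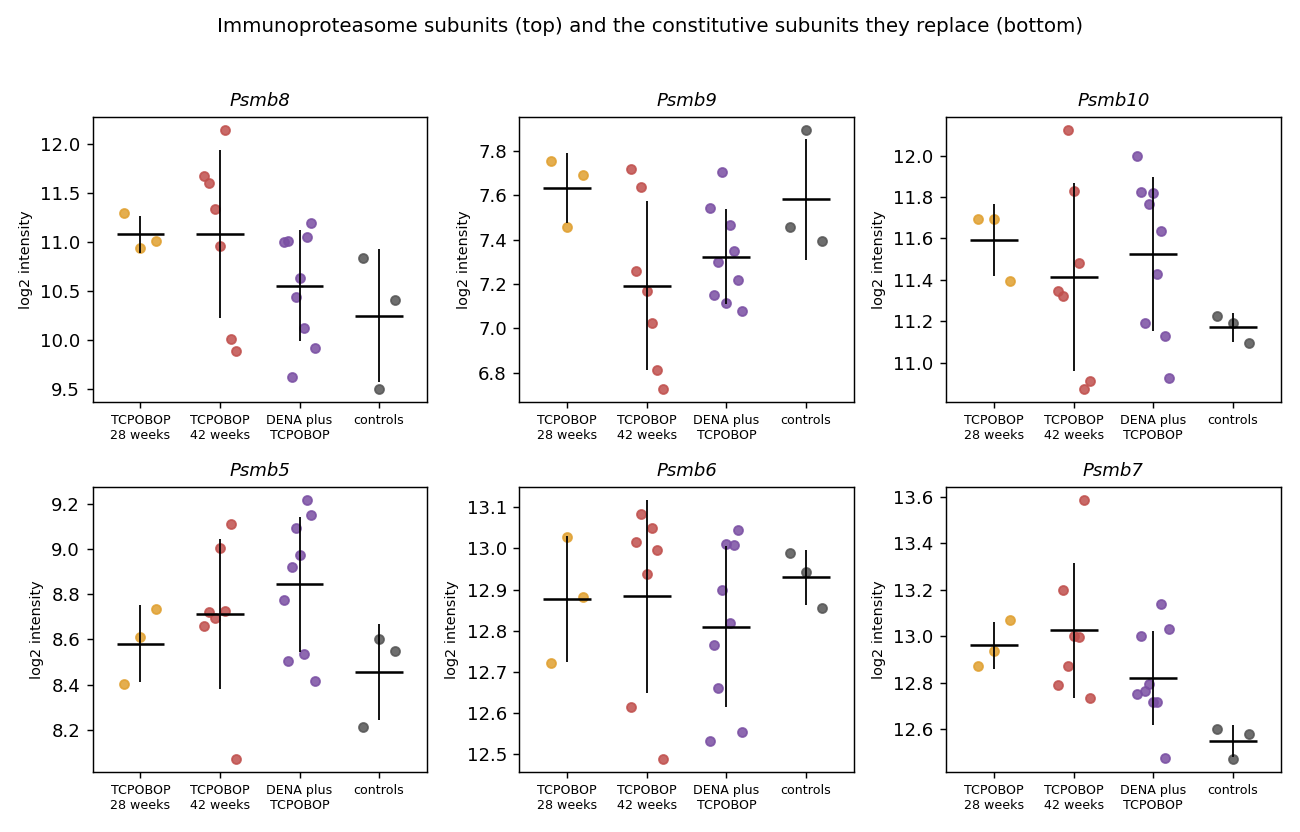
Log2 normalised intensity by array of the immunoproteasome genes Psmb8, Psmb9 and Psmb10 (top) and of their constitutive counterparts Psmb5, Psmb6 and Psmb7 (bottom), with the group mean (bar) and SD (whisker); the y axes do not start at 0. Psmb8 spans 9.88 to 12.15 at 42 weeks, and the 3 control arrays lie between 9.50 and 10.84.

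Between the treated groups few proteasome genes differed. At 42 against 28 weeks of TCPOBOP, Psmd8 was the 1 gene called higher, or 2.27% of the 44, against 6.62% of all genes, and none was called lower, against 7.83%. Psmd8 differed by 0.59 (SE 0.14, adjusted p = 0.00804), with non-overlapping ranges, and by 0.44 to 0.61 on the slides that held both groups. Without TCPOBOP 28-week replicate 3 its adjusted p was 0.0602.

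Set against TCPOBOP alone at 28 weeks, DENA plus TCPOBOP gave 2 higher calls: Psmd8 (0.56, SE 0.14, adjusted p = 0.00981) and Psmc3 (0.40, SE 0.13, adjusted p = 0.0427), or 4.55% of the 44, against 5.92% of all genes, and none was called lower, against 7.11%. Psmd8 had an adjusted p of 0.0723 without TCPOBOP 28-week replicate 3. Psmc3 kept its call with 4 of 12 arrays left out in turn, and its adjusted p was at most 0.167 without any 1 of the other 8: DENA replicates 1, 2, 4, 7 and 9 and TCPOBOP 28-week replicates 1, 2 and 3.

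In DENA plus TCPOBOP livers against TCPOBOP 42 weeks, none of the 44 genes was called higher, against 0.843% of all genes, and Psmd5 alone was called lower, or 2.27%, against 0.969%. Psmd5 lay between 7.51 and 8.36 with a median of 7.76 after DENA plus TCPOBOP, against 8.03 to 9.30 with a median of 8.49 at TCPOBOP 42 weeks. The ranges overlapped, and the difference was -0.75 (SE 0.15, adjusted p = 0.0191). On the single slide with both groups it was -0.42, and with slide as a fixed block the difference was -0.47 with an adjusted p of 0.463. With that block limma called 0 of the 11975 genes in this comparison, and 1194 had an unadjusted p under 0.05. For Psmd8 the difference was -0.03 (95% confidence interval -0.25 to 0.19, adjusted p = 0.904).

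**Figure D5:**
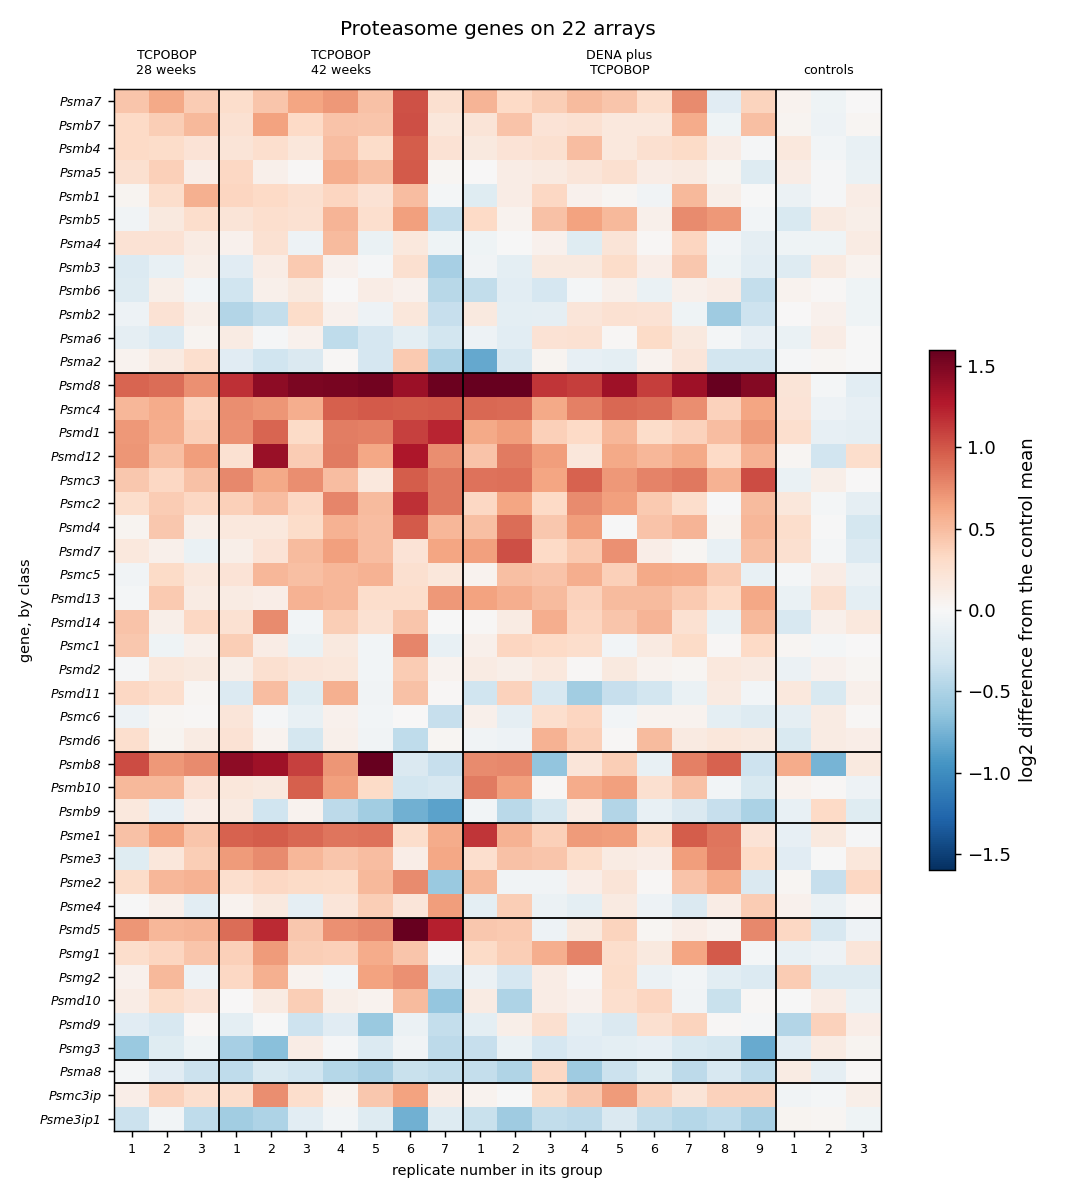
Log2 difference from the control mean of the 44 proteasome genes (rows, by class) on the 22 arrays (columns, by group), with the colour scale in log2 units. The row of Psmd8 is positive on all 19 treated arrays, while the rows of Psmb8 and Psmb10 hold both signs at TCPOBOP 42 weeks and after DENA plus TCPOBOP.

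Other genes that work with the proteasome were taken from separate lists. Of 10 measured partners (shuttle factors, deubiquitinases and adaptors), none was called at TCPOBOP 28 weeks. At 42 weeks Ecpas, which regulates cap binding to the core (-0.55, adjusted p = 0.0187), and Sem1, a small lid subunit without a Psm symbol (-0.52, adjusted p = 0.0316), were called lower, or 20% of the 10 against 17.5% of all genes. The DENA plus TCPOBOP group had 1 call, the stress-induced Zfand2a, higher by 1.34 (adjusted p = 0.0429), where its arrays reached 13.35 but had a median of 10.08. This is 10% of the list against 11.9% of all genes, so the partner counts are near the background. The core maturation factor Pomp and the cap deubiquitinases Usp14 and Uchl5 were called in none of the 3 comparisons with controls.

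Of 7 measured regulators, none was called at 28 weeks and 2 were called higher at 42 weeks and 2 after DENA plus TCPOBOP. Each count is 28.6% of the list, against 14.8% and 11.9% of all genes. Nfe2l2, a stress-response transcription factor known to induce proteasome genes, lay between 8.13 and 9.07 at 42 weeks and between 7.96 and 8.91 after DENA plus TCPOBOP, against 7.66, 7.87 and 7.67 in controls. Its arrays in both groups were above the controls, and the differences were 0.70 (adjusted p = 0.0077) and 0.69 (adjusted p = 0.00777). Vcp, the segregase that extracts ubiquitinated proteins for degradation, differed by 0.45 (adjusted p = 0.0203) and 0.40 (adjusted p = 0.038). Nfe2l1, which drives proteasome gene transcription when proteasome activity falls, differed by 0.21 (adjusted p = 0.256) and 0.08 (adjusted p = 0.695).

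Of 17 measured genes of antigen presentation and interferon response, Irf8, a myeloid and interferon factor, was the 1 called higher at 28 weeks (1.07, adjusted p = 0.0216), and none was called lower. At 42 weeks 1 was called higher, Irf8 again, and 5 lower, and after DENA plus TCPOBOP 1 was called higher, Irf8, and 4 lower. The lower calls are 29.4% and 23.5% of the list, against 17.5% and 15% of all genes, and the 1 higher call is 5.88%, against 14.8% and 11.9%. The lower calls included the interferon-induced GTPase Gbp3 (-1.19, adjusted p = 0.000371, and -1.30, adjusted p = 0.000133) and the peptide transporter subunit Tap2 (-1.09, adjusted p = 0.000679, and -0.65, adjusted p = 0.027). In the macrophage and dendritic cell list, 6 of 13 genes were called higher at 28 weeks. At 42 weeks 5 were called higher and 1 lower, and after DENA plus TCPOBOP 2 were called higher. The higher calls are 46.2%, 38.5% and 15.4% of the list, against 3.6%, 14.8% and 11.9% of all genes. The 1 lower call is 7.69%, against 17.5%. The highest differences of the list were those of Cd74, at 1.68, 1.57 and 1.25. Differences were negative in 4 of the 13 genes at 42 weeks, down to -1.14. They were negative in 4 after DENA plus TCPOBOP, down to -0.63. None of 7 measured T and NK cell markers was called in any of these 3 comparisons.

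The promoter windows of the genes were searched on both strands for short motifs to which factors of these pathways are known to bind, and matches to 2 of them are described here. RefSeq windows on GRCm38.p6 matched 37 of the 44 genes by symbol. The antioxidant response element core, TGACNNNGC, which Nfe2l1 and Nfe2l2 recognise, was present in 6 of 37 (16.2%), against 14.0% of 27025 genes. The interferon response core GAAANNGAA was present in 6 of 37 (16.2%), against 9.76%. Each motif was counted on its own, also where matches overlapped, and a match is a description, not a binding site.

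The stretches around the matches are printed for 3 genes whose values are described above, with the motif in capitals. Psmb5 (chr14:54618014-54618062, minus strand, motif at -47 from the start) and Psmb6 (chr11:70525328-70525376, plus strand, at -9), both catalytic and neither called, hold the antioxidant core. Psme1 (chr14:55578484-55578532, plus strand) holds the interferon core on its opposite strand just after the start. Of the 14 cap windows, 2 held the antioxidant core (Psmc6 and Psmd12) and 2 the interferon core (Psmc2 and Psmd4).
Psmb5: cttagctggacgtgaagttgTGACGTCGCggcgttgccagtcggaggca
Psmb6: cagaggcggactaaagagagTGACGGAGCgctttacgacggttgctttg
Psme1: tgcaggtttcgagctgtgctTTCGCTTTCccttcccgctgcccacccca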

How the data were processed

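Liver RNA was measured on 22 Illumina bead arrays of 45281 probes. The authors deposited a table of normalised intensity and a table of non-normalised intensity, each with a detection p-value per probe, made with BeadStudio 3.0.19.0 per the submitters' processing notes. The normalised table has no background subtracted (lowest value 80.3) and the same lowest and highest value on all 22 arrays. It was taken as log2 with no pseudocount. Probes were kept when detected (p under 0.05) on at least 3 arrays and named through the platform annotation, in which 34885 probes have 1 symbol, 18 several and 10378 none. Each gene took its brightest kept probe. The 11975 genes were fitted with limma 3.58.1 in R 4.3.3 (lmFit and eBayes, all 4 groups in one fit, 6 comparisons, Benjamini-Hochberg adjustment over all genes, threshold 0.05). The number of arrays limits the precision. The procedure was tested on simulated data.

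The symbol pattern, the classes and the other gene lists were chosen with earlier results of these data known. The genes set to be named were Psmb5 to Psmb10, Psme1 to Psme4, Psmd4, Psmd10, Psmd14 and Psmg1. To these came, in each comparison, the 3 most raised and the 3 most lowered called genes of the core, cap and chaperones. Up to 3 called genes of each other list were added. Not every one of these is given in every comparison, above all between the treated groups. Further genes were named after their values were seen. Values were recomputed from the non-normalised intensity with normexp (offset 16) followed by quantile, cyclic loess or median scaling, with quantile alone, with other probe filters and probe summaries, with slide or replicate number as a block, with only the groups compared, with other eBayes settings, and with each array left out. A further motif searched in the promoter windows is not reported here. The 4 slides were checked as batches, and each comparison had at least 1 slide with both groups. All called proteasome genes had the same direction within those slides as in the fit. The arrays of those slides also entered the fit that selected the genes, so shared direction is not an independent test. Within a slide, treated arrays met 1 control array. For TCPOBOP 42 weeks this was slide 2 only, with 4 arrays against 1.

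No pairing of the arrays by replicate number was seen. Deviations of same-numbered arrays from their group means correlated at -0.175 to 0.183 (median 0.037), over 0.1 for 3 of 22 pairs. Other pairs between groups correlated at -0.343 to 0.313 (median -0.005), over 0.1 for 31 of 146. A further protocol of the series, with shorter TCPOBOP dosing, was not analysed here.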

Additional observations from a re-analysis of the deposited data

Results flagged for a closer look

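In 6 of 88 sets of values (44 genes in the 7 arrays of TCPOBOP 42 weeks and in the 9 of DENA plus TCPOBOP), 1 array stood far from the others by Dixon's criterion, which chance alone meets in about 1 set in 20. At TCPOBOP 42 weeks these were Psmb4 on replicate 6, at 14.58 with the nearest array at 14.11, and Psme2 on replicate 7, at 8.70 with the nearest at 9.57. After DENA plus TCPOBOP, Psma2 on replicate 1 was at 12.34 with the nearest array at 12.86. In the same group Psma7 on replicate 8 was at 11.89 with the nearest at 12.36, Psma8 on replicate 3 at 7.57 with the nearest at 7.04, and Psmg3 on replicate 9 at 8.78 with the nearest at 9.22.

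A difference between treated groups was found for 3 genes. Psmd8 was higher at 42 than at 28 weeks of TCPOBOP by 0.59 and higher after DENA plus TCPOBOP than at TCPOBOP 28 weeks by 0.56. Psmc3 was higher after DENA plus TCPOBOP than at TCPOBOP 28 weeks by 0.40. Psmd5 was lower after DENA plus TCPOBOP than at TCPOBOP 42 weeks, with a difference of -0.75.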

How the results depend on the processing

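No called gene changed direction in the alternatives that were run. The count of proteasome genes called at TCPOBOP 28 weeks against controls (2) became 1 after normexp with quantile, cyclic loess or median scaling, with no filter, with detection on at least 11 arrays and with eBayes trend and robust settings, 10 with only the groups compared, and 1 to 3 with each array left out. The count at TCPOBOP 42 weeks against controls (16) became 10 under median scaling and 10 with the replicate number as a block, and 10 to 18 with each array left out, lowest without control replicate 2. The count after DENA plus TCPOBOP against controls (11) became 7 under cyclic loess, 4 under median scaling and 7 with no filter, and 5 to 11 with each array left out. Over all genes, higher and lower calls in that comparison (1426 and 1796) were 1460 and 1748 under cyclic loess, 1237 and 1743 under median scaling, and 1270 and 1691 of 19057 with no filter. At 42 weeks they (1773 and 2097) were 1641 and 2025 under median scaling and 1541 and 1817 with the replicate block. After DENA plus TCPOBOP the cap median (0.42) was 0.30 under median scaling, and the immunoproteasome median (0.31) ranged over -0.064 to 0.40 with each array left out, lowest without control replicate 2, while the core median (0.08) was -0.055 under median scaling. The core count at 42 weeks (3) was 0 to 3 across settings. It was 0 under cyclic loess, where higher calls over all genes were 1833 in place of 1773. The cap count after DENA plus TCPOBOP (8) was 3 to 9. It was 3 under cyclic loess, where higher calls over all genes were 1460 in place of 1426. At TCPOBOP 42 against 28 weeks the count (1) became 2 with slide as a fixed block, the replicate block or probes of a gene averaged, and 0 to 3 with each array left out. For DENA plus TCPOBOP against TCPOBOP 28 weeks the count (2) became 1 after normexp with quantile or cyclic loess, with no filter, with the replicate block or with trend and robust settings, 0 under median scaling, 4 with slide as a fixed block, and 0 to 2 with each array left out, lowest in both of these comparisons without TCPOBOP 28-week replicate 3. For DENA plus TCPOBOP against TCPOBOP 42 weeks the count (1) became 0 with slide as a fixed block, where 0 of 11975 genes were called, and 1 to 2 with each array left out. No pairing by replicate number was seen, and whether a call lost under that block marks a weaker effect was not tested. Median scaling moved the median of all genes at TCPOBOP 28 weeks to -0.12, against -0.02. There, 431 higher and 330 lower calls over all genes became 420 and 276. At TCPOBOP 42 against 28 weeks, 793 and 938 became 593 and 760 with slide as a fixed block. For DENA plus TCPOBOP against TCPOBOP 28 weeks, 709 and 852 became 871 and 1055 with that block and 702 and 734 under median scaling. Without TCPOBOP 28-week replicate 3 they were 305 and 454, and 337 and 481 at TCPOBOP 42 against 28 weeks. The cause of these shifts was not tested. Only 3 control arrays enter every comparison with controls, and probes near background (Psma6, Psma8, Psmb9, Psmc3ip and Psmd2) carry little information.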
